A study of Drosophila melanogaster with 3 samples.

Results

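The regions described here are 537 promoter peaks that carry an exact copy of the DNA replication-related element (DRE) at genes read in 1 direction. They are drawn from 2793 peaks of anti-GFP chromatin immunoprecipitation sequencing (ChIP-seq) in embryos of Drosophila melanogaster. The embryos, whole and 0 to 24 h old, came from the Doc3-GFP strain, which carries a transgene for the T-box transcription factor Doc3 fused to eGFP. All 3 samples, biological replicates 1, 2 and 3 per the labels, belong to this 1 group. The labels name GFP as the target of the antibody in one field and Doc3 in another, and they do not give the promoter that drives the transgene. No untagged or input sample was analysed here, so the values describe how the peaks differ among themselves and not how they differ from a mock pull-down.

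A peak was kept when its summit, the position of highest enrichment, had start sites (TSSs) of protein-coding transcripts of only 1 strand within 500 bp and a copy of TATCGATA centred within 250 bp. Neither the lists of single replicates nor the strength of a peak entered this choice. The remaining 2256 peaks comprised 909 at promoters of 1 strand without the element, 435 and 653 at divergent promoters with and without it, and 41 and 218 away from coding start sites with and without it. The 537 peaks fell into 479 separate regions beside 477 genes, and 276 of them lay at genes on the plus strand. The genes PI31 and sov had 2 regions each. Sequencing depth is unknown, because the lists give no read numbers.

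The DRE is a palindrome, so it reads the same on both strands. It is bound by DREF, a zinc-finger protein of the BED type, and was first described at the promoters of the DNA polymerase alpha and PCNA genes. Later work placed it among the core promoter elements of broadly expressed "housekeeping" genes in flies, where it overlaps the shorter CGATA motif read by the insulator protein BEAF-32. T-box proteins such as Doc3 are known to read a different motif, related to GGTGTGA.

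The sequences below show the element, in capitals, at 5 of the strongest single-copy peaks whose printed bases overlap annotated exons by at most 30. Each runs 5′ to 3′ along the strand of the gene, from release 6 of the fly genome (dm6), and lies outside coding transcripts.
Jwa, chr2L:18705874-18705933, minus strand: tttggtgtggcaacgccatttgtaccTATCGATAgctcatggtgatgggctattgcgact
Capr, chr3L:18673388-18673447, minus strand: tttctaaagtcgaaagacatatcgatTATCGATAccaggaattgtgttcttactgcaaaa
Epg5, chr3R:18759095-18759154, minus strand: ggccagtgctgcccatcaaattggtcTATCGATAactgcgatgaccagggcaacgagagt
CaBP1, chr2L:16356899-16356958, minus strand: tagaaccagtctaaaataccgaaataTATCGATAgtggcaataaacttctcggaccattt
CG31122, chr3R:18413052-18413111, minus strand: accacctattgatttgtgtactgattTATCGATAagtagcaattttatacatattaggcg

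Further stretches, each spanning a pair of copies, come from strong peaks of that kind under the same limits, and they show how the spacing of the pair varied.
CG6325, chr3R:10407316-10407399, minus strand: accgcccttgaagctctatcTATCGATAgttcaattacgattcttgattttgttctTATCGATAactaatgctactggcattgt
Efa6, chr3R:22587599-22587689, plus strand: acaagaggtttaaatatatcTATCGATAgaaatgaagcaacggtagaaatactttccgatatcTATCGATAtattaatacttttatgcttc
Pep, chr3L:17645049-17645191, minus strand: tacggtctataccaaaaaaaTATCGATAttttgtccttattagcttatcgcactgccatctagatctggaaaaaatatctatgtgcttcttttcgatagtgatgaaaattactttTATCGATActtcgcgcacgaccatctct
ArfGAP1, chr3L:12417594-12417734, minus strand: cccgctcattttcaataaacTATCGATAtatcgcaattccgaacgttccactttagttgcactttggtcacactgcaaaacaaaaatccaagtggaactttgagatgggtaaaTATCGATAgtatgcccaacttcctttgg

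At the cell-cycle and chromatin genes described further on, the element looked as follows at PolA1, which encodes the catalytic subunit of DNA polymerase alpha and had 3 copies, and at Top2, Cdk2 and CTCF, which had 1 copy each.
PolA1, chr3R:21671733-21671967, minus strand: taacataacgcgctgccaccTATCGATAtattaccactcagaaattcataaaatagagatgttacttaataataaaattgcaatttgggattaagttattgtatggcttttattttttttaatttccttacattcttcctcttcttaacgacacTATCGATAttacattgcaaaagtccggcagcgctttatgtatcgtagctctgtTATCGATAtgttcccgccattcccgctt
Top2, chr2L:19453511-19453570, minus strand: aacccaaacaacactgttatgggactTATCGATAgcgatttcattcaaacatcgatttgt
Cdk2, chr3R:20735536-20735595, plus strand: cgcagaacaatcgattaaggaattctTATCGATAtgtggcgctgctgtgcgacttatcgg
CTCF, chr3L:7356701-7356760, minus strand: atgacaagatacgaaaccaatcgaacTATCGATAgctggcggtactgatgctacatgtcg

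For contrast, copies are given that lay close to a start site but under no listed region of any replicate. They are the first of their kind along the X chromosome.
vnd, chrX:582014-582073, plus strand: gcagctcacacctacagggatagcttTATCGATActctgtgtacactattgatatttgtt
CG3939, chrX:3174960-3175019, plus strand: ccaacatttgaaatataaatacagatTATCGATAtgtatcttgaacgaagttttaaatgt
CG32643, chrX:12984400-12984459, plus strand: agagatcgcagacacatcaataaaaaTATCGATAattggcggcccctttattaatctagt

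The strength of a peak is the signal value in the authors' list. Its scale is unknown, so it was used to rank peaks within a list. Across the 537 peaks it had a median of 221, with quartiles of 134 and 342 and a range of 3.09 to 1205. The members held 6 of the 25 strongest peaks of the whole set (24%, 95% Wilson interval 11.5 to 43.4%). Of the 100 strongest they held 25 (25%, 17.5 to 34.3%). Both intervals include the share of members in the whole set, 537 of 2793 peaks, so these counts do not separate the members from the other peaks.

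The strongest was at Jwa, with a signal value of 1205 and rank 4 of the whole set. Replicates 1, 2 and 3 gave it signals of 247, 485 and 467. The median over the members was 54.1 in replicate 1 against 110 and 92.3 in the others, so levels are compared between replicates only as ranks. The next was at Capr, which encodes the RNA-binding protein Caprin, with a signal of 1066 and values of 187, 450 and 408 in replicates 1, 2 and 3. Creld had a signal of 989 and values of 219, 384 and 399. Gp150, a leucine-rich-repeat glycoprotein of the cell surface, had a signal of 917 and values of 176, 429 and 335. All 4 stood near the top of every replicate, with rank percentiles of 98.9 or higher where 100 is the strongest.

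The 20 strongest members, with signals from 678 to 1205, belonged to genes of varied function. They included Hacl, a 2-hydroxyacyl-CoA lyase (915), and Pym, a partner of the exon junction complex (889). Epg5, which acts in the fusion of autophagosomes with lysosomes, had a signal of 845, and CaBP1, a protein disulfide isomerase, had 834. Nrg, the L1-type adhesion molecule Neuroglian, had 786, and mRpL4, a protein of the large mitochondrial ribosomal subunit, had 775. The co-chaperone gene DnaJ-1 had 701, Kyat, a kynurenine aminotransferase, had 696, and the ribosomal protein gene RpS7 had 681. Rab19, a small GTPase, and Efa6, an exchange factor for the GTPase Arf6, closed the group with 681 and 678. The others were the less characterised CG9849 (745), CG31122 (720), CG13096 (700), CG6325 (687) and CG3760 (679). All 20 were in the lists of the 3 replicates.

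How far single replicates held these peaks was asked with the thresholded lists, which had 1774, 2486 and 1812 peaks in replicates 1, 2 and 3. In the whole conservative set, 53.6% of the peaks were overlapped in all 3 lists. Of the 537 members, 360 were (67.0%, 95% Wilson interval 63.0 to 70.9%), 91 were in 2 lists, 58 in 1 and 28 in none. An overlap here is 1 shared bp, and the share in all 3 lists was 40.0% when 50% of both peaks had to overlap. Intervals here cover counting error only, since the peaks share the same libraries, and the conservative set was itself made from these samples. Replicate 2, which had the longest list, held 489 members (91.1%), replicate 1 held 428 (79.7%) and replicate 3 held 403 (75%). Among the 91 members found in 2 lists, replicate 3 lacked 56, replicate 1 lacked 33 and replicate 2 lacked 2.

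More of the stronger members than of the weaker ones were in every list. Split into 4 groups by signal, the strongest 118 peaks, with a signal of 361 or more, were all in the 3 lists. The share was 94.9 and 60.7% in the groups that follow and 5.08% in the weakest, 118 peaks with signals of 50.1 to 157. These groups count 1 peak per region, because 67 members lay against a stronger conservative peak and took over its values in the replicates. Of those 67, 58 lay beside a stronger peak that was itself a member. The 28 members found in no replicate list had signals between 9.40, at Wdr62, and 155, at CG2225. Taking 1 peak per region left 470 members, of which 306 (65.1%) were in all 3 lists.

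Each replicate ranked peaks with the element above promoter peaks of 1 strand that lacked it. Ranked within the 2793 peaks, with 100 as the strongest, the members had median percentiles of 61.6, 61.3 and 61.2 in replicates 1, 2 and 3. The 909 peaks without the element had medians of 42.5, 44.1 and 42.4. The difference was 19.1, 17.1 and 18.8 points, all in the same direction, with a mean of 18.3 ± 1.06 (SD, n = 3). The two-sided exact sign-flip permutation test gave p = 0.25, the smallest that 3 replicates allow, so this design cannot reach a threshold of 0.05. Among the stronger 50% of the peaks by signal, ranked again, the mean difference was 6.18 points. In the same direction, 417 of the 909 (45.9%, 42.7 to 49.1%) were in all 3 replicate lists.

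Divergent promoters, where genes are read in both directions from nearby starts, gave ranks close to those of the members when they carried the element. Their medians were 62.5, 61.3 and 61.2. The members differed from them by −0.913, −0.0895 and 0.0537 points, a mean of −0.316 ± 0.522 (SD, n = 3), which is smaller than the spread between replicates (exact sign-flip permutation test, two-sided, p = 0.5). The share in all 3 lists was 291 of 435 (66.9%, 62.3 to 71.2%). With 1 peak per region the difference from peaks without the element was 17.3 ± 0.960 points and that from divergent peaks with it −0.646 ± 0.484 points (SD, n = 3 each, exact permutation p = 0.25 for both).

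**Figure D1:**
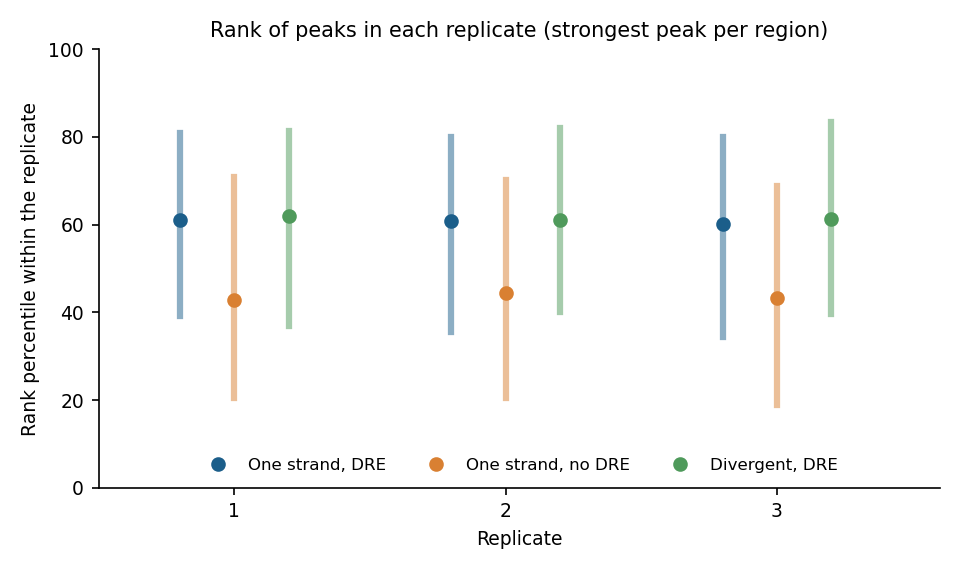
Rank percentile (y axis, 100 = strongest) of conservative peaks in each of the 3 replicates (x axis), for promoters of 1 strand with a DRE, promoters of 1 strand without it and divergent promoters with it, 1 peak per region. Points are medians and thick lines run from the lower to the upper quartile over peaks; the medians of the 2 groups with a DRE lie close together in every replicate and above those without it.

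Ranks were also graded by how much of the element was present. Of the 909 promoter peaks of 1 strand without the full element, 369 had 7 of its 8 bases in a row within 250 bp of the summit, 188 had 6 and 352 had fewer. The median percentile over replicates 1, 2 and 3 was 56.7, 56.2 and 57.1 with 7 bases. It was 37.1, 40.1 and 38 with 6 bases and 28.9, 28.2 and 27.0 with fewer. The order of these groups was the same in each replicate, with the members highest. The share found in all 3 lists fell along the same order, from 67.0% of members to 61.8% (56.7 to 66.6%), 40.4% (33.7 to 47.6%) and 32.1% (27.4 to 37.2%). With 1 peak per region these shares were 65.1, 62.1, 43.3 and 29.5%.

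The same grading held when annotated start sites rather than peaks were counted. Of 15007 coding start sites with no start on the other strand within 500 bp, 8.62% lay under a conservative peak. Among the 640 with the full element between 100 bp upstream and 50 bp downstream, a window chosen after the distances given further on had been seen, 412 did (64.4%, 60.6 to 68.0%). With 7 bases of it in that window the share was 322 of 692 (46.5%, 42.8 to 50.3%), and with 6 bases 157 of 1241 (12.7%, 10.9 to 14.6%). With fewer it was 403 of 12434 (3.24%, 2.94 to 3.57%). Counted per gene, the shares were 64.5, 47.2, 12.6 and 3.97% of 608, 653, 1178 and 9120 genes. None of the intervals overlap between the steps. The activity of these promoters in the embryo was not measured, and its part in the grading was not tested.

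**Figure D2:**
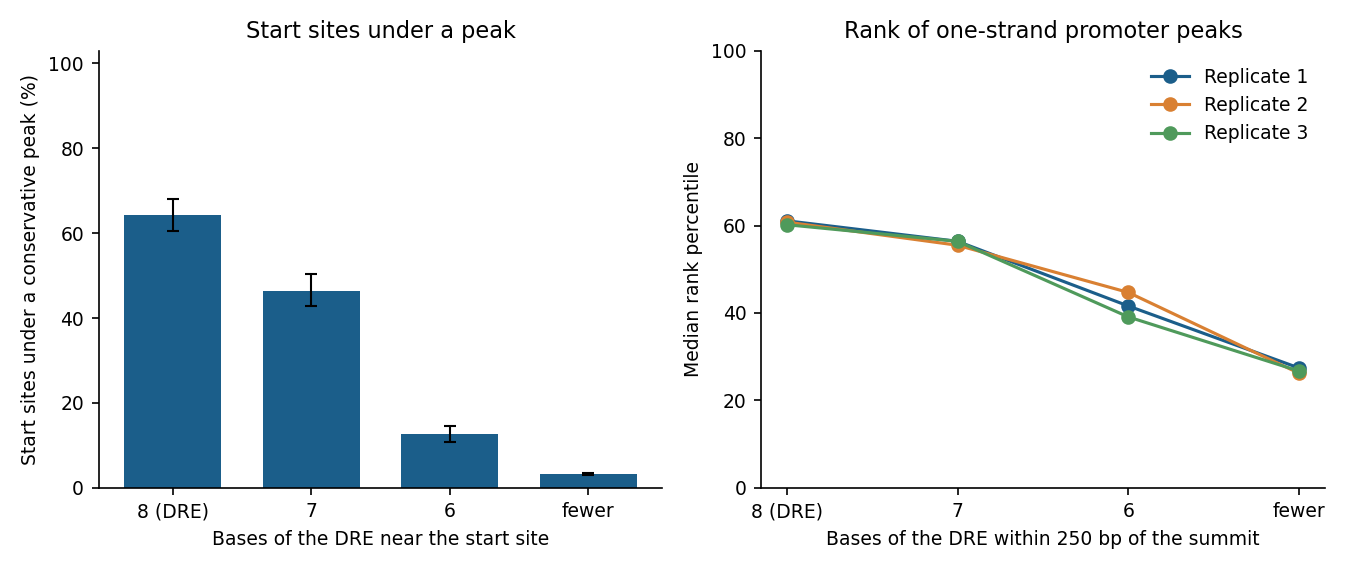
Left, share of coding start sites of 1 strand under a conservative peak (y axis, percent) by the longest run of DRE bases within 100 bp upstream to 50 bp downstream (x axis), with 95% Wilson intervals. Right, median rank percentile in each of the 3 replicates (y axis, 100 = strongest) of promoter peaks of 1 strand, 1 peak per region, by the longest run within 250 bp of the summit (x axis); both fall from the full element to fewer than 6 bases, the left from 64.4 to 3.24%.

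The summit lay close to the element in most members. The median distance between the summit and the centre of the nearest copy was 38.5 bp, with quartiles of 16.5 and 86.5 bp. It was at most 10 bp in 76 members, 25 bp in 189 and 50 bp in 328 (61.1%, 56.9 to 65.1%). Since the rule allowed up to 250 bp, the upper limit of this distance is fixed by the choice of members and its shape within that limit is not. The summits that each replicate placed in the same regions, which the rule did not use, gave medians of 31.5, 29.5 and 35.5 bp in replicates 1, 2 and 3. With 1 peak per region these medians were 33, 30.5 and 35.5 bp, beside 32.5 bp for the conservative summits.

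The longer distances came largely from peaks that were not the strongest of their region. Of 53 members with the copy 150 to 200 bp away, 31 were of that kind, as were 25 of the 30 members at 200 to 250 bp. Taking 1 peak per region, the median distance was 32.5 bp and 325 of 470 summits lay within 50 bp of the element (69.1%, 64.8 to 73.2%). At divergent promoters with the element the corresponding share was 170 of 357 (47.6%, 42.5 to 52.8%), below that of the members with intervals that do not overlap. Away from coding starts, peaks with the element had 27 of 34 (79.4%, 63.2 to 89.7%), an interval that includes the share of the members. At the limit of the rule, the 10 members whose copy lay 225 to 250 bp from the summit had a median percentile of 11.6 in the conservative list, and the 9 peaks just outside, at 250 to 275 bp, had 5.60. In each of these groups 9 peaks were not the strongest of their region.

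The strongest peaks did not have the nearest elements. Only 9 of the 20 strongest members had a copy within 50 bp of the summit. The distances from the summit were 98.5 bp at Jwa, 150.5 bp at Capr, 110.5 bp at Epg5 and 96.5 bp at CaBP1, each with the copy on the upstream side. At Hacl it was 210.5 bp, the longest among these 20. In contrast, the copy was 12.5 bp from the summit at Creld and 11.5 bp at Kyat, in each case downstream of it. Across the 4 groups by signal, from strongest to weakest, the share of summits within 50 bp was 65.3, 80.3, 69.2 and 61.9%, so it did not rise or fall steadily with strength.

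In 145 of the 470 regions the summit lay more than 50 bp from the element. Their median signal of 239 compares with 257 for the 325 closer ones. Of the 145, 91 (62.8%, 54.7 to 70.2%) had no stretch of even 5 bases of the kind CGATA within 50 bp of the summit, while 13 had 7 bases of the element in a row there, 18 had 6 and 23 had CGATA. For comparison, 22.0% of windows of this length at coding start sites held CGATA outside a full element. That share counts windows with the motif, whereas the 62.8% counts summits without any such piece. A run of 6 bases need not hold CGATA, so the measures are not like for like. The full copy was on the upstream side of the summit in 85 of the 145 (58.6%, 50.5 to 66.3%).

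Relative to genes, the element lay mostly just before the start site. The median position of the nearest copy was 38.5 bp upstream of the nearest coding start, and its quartiles were 73.5 and 11.5 bp upstream. It was upstream in 454 of the 537 members (84.5%, 81.2 to 87.4%). Among all copies in the genome at promoters of 1 strand, which include those under peaks, 788 of 972 were upstream (81.1%, 78.5 to 83.4%). Among the copies outside conservative peaks, 338 of 441 were upstream (76.6%, 72.5 to 80.4%), an interval below that of the members. In 235 members (43.8%) the copy was 50 to 0 bp upstream, and in 71 (13.2%) it was 0 to 50 bp downstream. By the annotation the nearest copy lay outside coding transcripts in 388 members, in untranslated exons in 109, in introns in 38 and in coding sequence in 2, at CG9849 and CG7741. Some members of the same region share their nearest copy, so the member counts are of peaks and not of separate copies. Copies of the element at promoters lie near start sites whether or not a peak is present, so the member share is to be read beside all copies. The nearest copy lay from 100 bp upstream to 50 bp downstream in 426 of the 537 members (79.3%, 75.7 to 82.5%). Of all 972 copies with coding starts of only 1 strand within 500 bp, 646 lay there (66.5%, 63.4 to 69.4%), and of the 441 outside conservative peaks 214 did (48.5%, 43.9 to 53.2%). That window was chosen after the distances of the members had been seen, so the higher share of members in it was in part fixed by the choice.

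**Figure D3:**
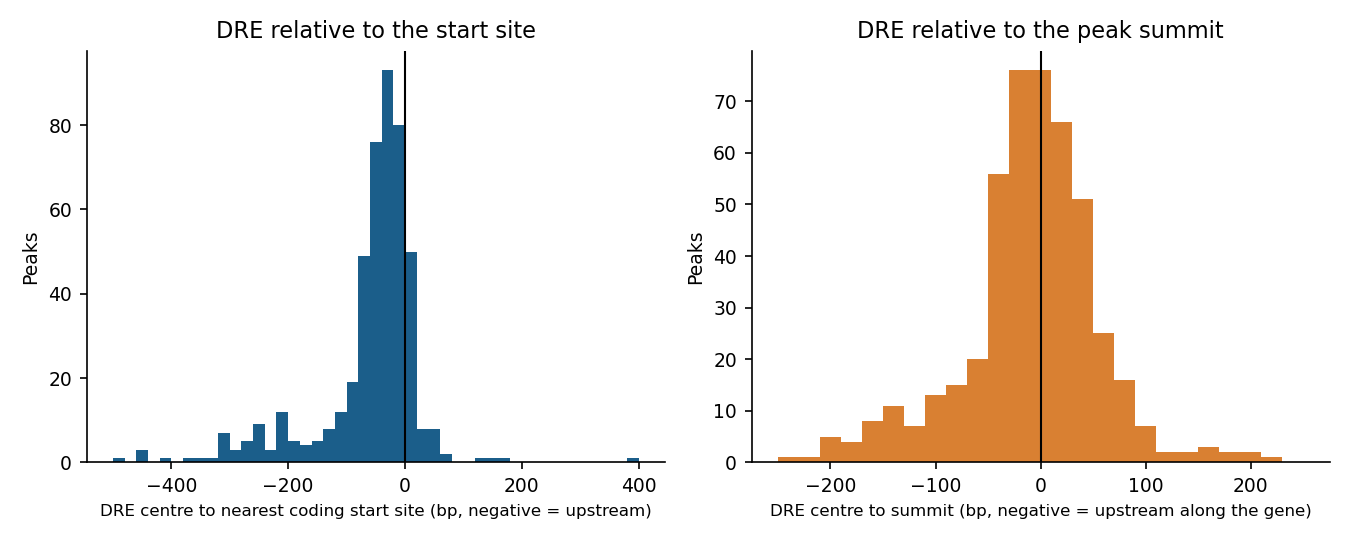
Number of peaks (y axes) by the distance in bp from the nearest DRE centre to the nearest coding start site (left) and to the summit (right), for 470 peaks, 1 per region, in bins of 20 bp; negative values are upstream along the gene. The left distribution lies mostly just upstream of the start and the right one is centred near the summit, with 325 peaks within 50 bp.

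Where the element lay further upstream of the start, the median summit did too. Among the 396 single-copy members with 1 peak per region, the median summit was 3.50 bp upstream of the start when the copy was 0 to 50 bp downstream. It was 24 bp upstream for 178 copies at 50 to 0 bp upstream and 48.5 bp upstream for 88 copies at 100 to 50 bp. For 16 copies at 150 to 100 bp upstream it was 91.5 bp, and for 39 copies at 300 to 150 bp it was 141 bp. The 12 copies still further upstream had a median summit of 194 bp upstream. The median distance of summit from element grew from 32.5 bp at 150 to 100 bp to 84.5 bp at 300 to 150 bp and 129 bp beyond. Of the 67 copies more than 100 bp upstream, 55 (82.1%, 71.3 to 89.4%) had their summit between the element and the start, 10 had it upstream of the element and 2 at or past the start. Across these 396 peaks Spearman's rho of both positions was 0.567. It is a description, as the peaks share 3 libraries and the rule keeps the summit within 250 bp of the copy. The summit was nearer to the element than to the start site in 304 of 470 regions (64.7%, 60.3 to 68.9%). The rule allowed 250 bp to the element but 500 bp to the start, so this share is in part set by the rule.

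**Figure D4:**
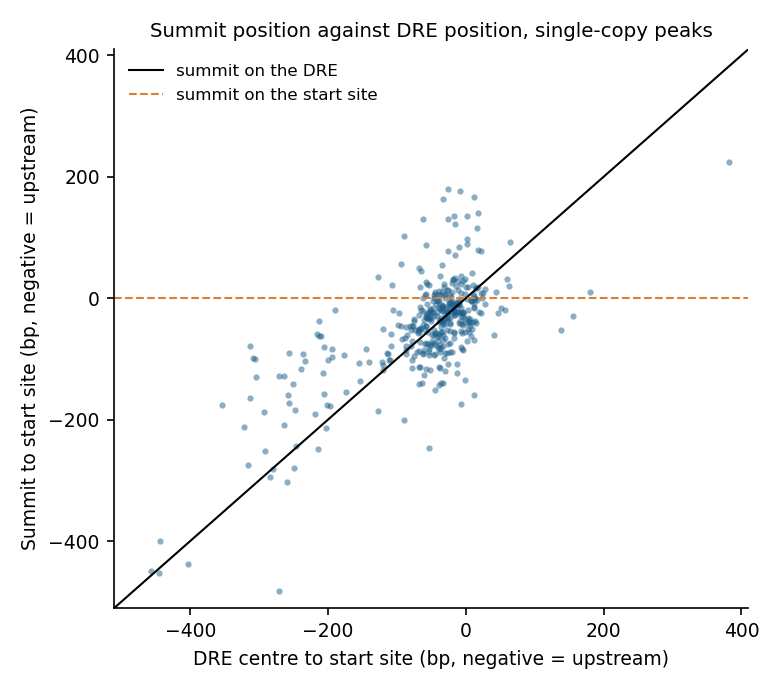
Distance in bp from the start site of the summit (y axis) against that of the DRE centre (x axis) for 396 single-copy peaks, 1 per region; negative values are upstream. The solid line marks a summit on the DRE and the dashed line a summit on the start site; points gather near the solid line between 100 bp upstream and the start and, of the 67 with the DRE more than 100 bp upstream, 55 lie between the lines and 10 below the solid line.

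Most members had a single copy, but 72 had 2 and 11 had 3 within 250 bp of the summit, together 83 (15.5%, 12.6 to 18.8%). Peaks with 2 copies ranked above those with 1 in each replicate. The medians in replicates 1, 2 and 3 were 60.8, 60.9 and 60 with 1 copy, 64.8, 68.1 and 68.8 with 2, and 64.5, 77.0 and 71.1 with 3. Thus the rank with 3 copies was above that with 2 in replicates 2 and 3, but not in replicate 1. The share in all 3 lists was 65.2% (60.7 to 69.4%), 76.4% (65.4 to 84.7%) and 81.8% (52.3 to 94.9%), and these intervals overlap. Neighbouring copies were a median of 54 bp apart from centre to centre, with a range of 6 to 330 bp over 85 pairs. Of these, 31 pairs were at most 30 bp apart and 2 overlapped each other. CG6325 and Efa6, printed above, show the closer spacing, and Pep and ArfGAP1 the wider. The stretch of ArfGAP1 also held 1 copy of Motif 1 (GGTCACACT), a core promoter element bound by M1BP, between its copies.

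The 11 members with 3 copies were at Nrg, PolA1, Dpm3, ATbp, CG2076, ref(2)P, Pi3K92E, PI31, ken, sesB and CDK2AP1. At Nrg the copies were 182.5, 152.5 and 74.5 bp upstream of the start, and its percentiles were 99.0, 97.7 and 98.5 in replicates 1, 2 and 3. At PolA1 they were 193.5, 59.5 and 6.5 bp upstream, with percentiles of 94.0, 92.7 and 89.5. Both were near the top of every replicate. Dpm3, a subunit of dolichol-phosphate mannose synthase, had percentiles of 96.0, 91.1 and 90.5. The weakest was CDK2AP1, with 4.46, 2.72 and 17.5, which was found in 1 replicate list although its 3 copies lay within 50 bp of the start. The others lay between, such as ref(2)P, the fly counterpart of the autophagy receptor p62, at 65.2, 83.7 and 71.1, and sesB, the ADP/ATP carrier of mitochondria, at 62.7, 32.2 and 36.4.

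The genome held 4019 exact copies of the element on the 6 chromosome sequences, and 968 of them (24.1%) lay in a conservative peak. At promoters of 1 strand 531 of 972 copies did (54.6%, 51.5 to 57.7%). The thresholded lists of replicates 1, 2 and 3 covered 45.5, 50 and 42.9% of these copies. At divergent promoters the share was higher, 398 of 532 (74.8%, 71.0 to 78.3%), and away from coding starts it was 39 of 2515 (1.55%, 1.14 to 2.11%). Conservative peaks cover 0.784% of these sequences.

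At promoters of 1 strand, the share of copies under a peak depended on their distance from the start. It was 237 of 332 (71.4%, 66.3 to 76.0%) for copies 50 to 0 bp upstream and 74 of 105 (70.5%, 61.2 to 78.4%) for those 0 to 50 bp downstream. Upstream it fell to 57.9% at 100 to 50 bp, 50.6% at 200 to 100 bp, 40.8% at 300 to 200 bp and 19.5% at 500 to 300 bp. Downstream it was 6 of 31 (19.4%, 9.19 to 36.3%) at 50 to 200 bp and 1 of 48 (2.08%, 0.369 to 10.9%) at 200 to 500 bp. The decline was therefore much shorter on the downstream side. The order of the nearest 3 upstream bins was the same in each replicate, for example 57.5, 68.4 and 56.9% in replicates 1, 2 and 3 at 50 to 0 bp against 43.8, 48.3 and 40.4% at 200 to 100 bp.

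Among the 646 copies from 100 bp upstream to 50 bp downstream, 432 (66.9%, 63.2 to 70.4%) were under a conservative peak. With 1 copy within 250 bp the share was 319 of 511 (62.4%, 58.1 to 66.5%), and with 2 it was 95 of 115 (82.6%, 74.7 to 88.5%). With 3 it was 18 of 20 copies (90%, 69.9 to 97.2%). Copies of 1 promoter share their peak and are not separate observations. In each replicate the copies with others nearby were covered more often than single ones, in 71.9, 74.8 and 68.9% against 49.5, 59.5 and 47.9%. By chromosome the share was 62.1% on X, 72.8% on 2L, 63.2% on 2R, 69.2% on 3L and 71.2% on 3R, and 5 of 10 on the small chromosome 4.

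The bases next to the element went with the share as well. Because the element is a palindrome, the base after it was read on both strands, so that a copy written with C before and G after, as at Jwa and CTCF above, counts as G on both sides. With G on both sides 56 of 66 copies were under a peak (84.8%, 74.3 to 91.6%), with G on 1 side 182 of 264 (68.9%, 63.1 to 74.2%) and with none 194 of 316 (61.4%, 55.9 to 66.6%). With A on both sides, as at CG31122, it was 26 of 66 (39.4%, 28.5 to 51.5%). The single pairs did not all follow the number of G. Pairs with G on 1 side ranged from 65.0% (A and G) to 88.1% (C and G, 37 of 42). Pairs without G ranged from 39.4% (A and A) to 81.4% (C and T, 35 of 43). Restricted to single copies, the shares were 84.6% of 52 with G on both sides and 35.1% of 57 with A on both sides. The replicates gave 66.7, 75.8 and 62.1% for G on both sides and 33.3, 40.9 and 34.8% for A on both sides. The bases to compare were chosen after these shares had been seen, and those further out were not tested.

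**Figure D5:**
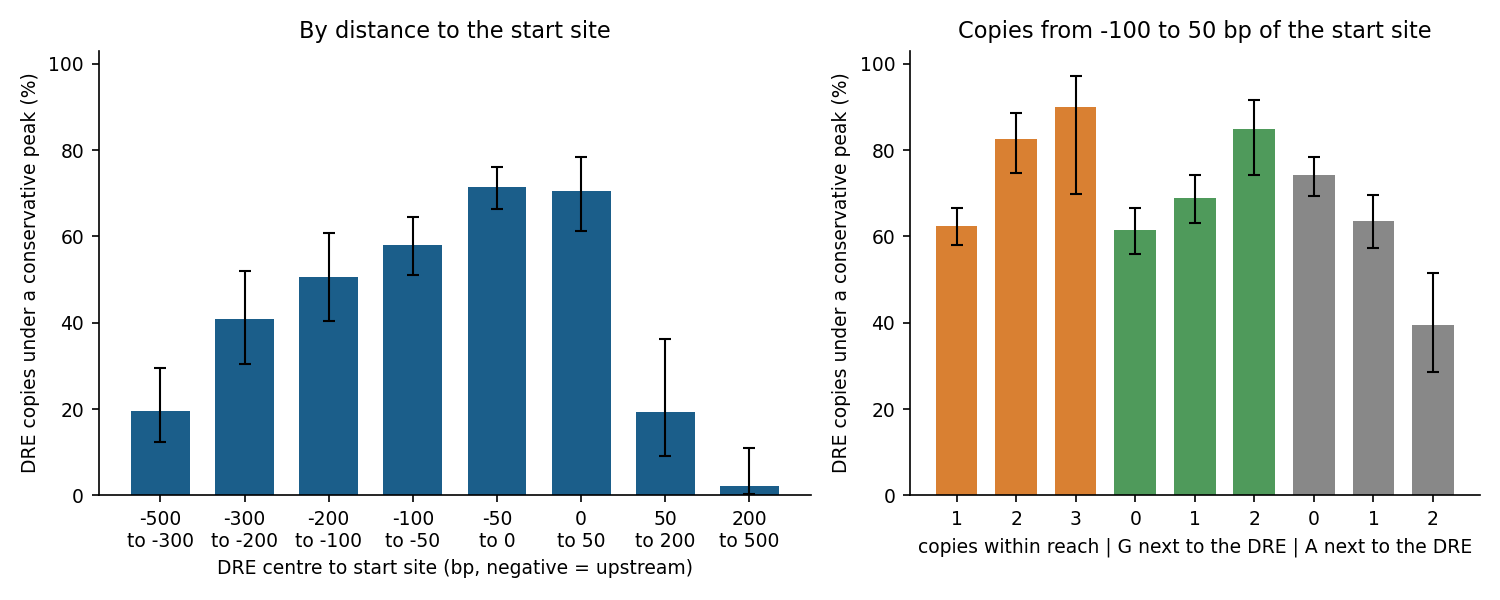
Share of exact DRE copies at promoters of 1 strand that lie under a conservative peak (y axes, percent, with 95% Wilson intervals). Left, by distance of the copy from the start site in bp (x axis, negative upstream), highest between 50 bp upstream and 50 bp downstream; right, for the 646 copies from 100 bp upstream to 50 bp downstream, by copies within 250 bp (orange), by the number of sides with G (green) and by the number with A (grey).

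Of the same 646 copies, 47 lay in no region of any replicate's ranked list, although those lists, which also hold weak regions, together cover 43.7% of the chromosome sequences. The copies printed above for vnd, CG3939 and CG32643 are of this kind. They were 77.5, 28.5 and 94.5 bp upstream of their starts. vnd encodes a homeodomain protein of the ventral nervous system and is a patterning gene.

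Other known motifs were counted within 100 bp of the summit, on both strands, leaving out matches that overlap the element. Shares are given for 470 members with 1 peak per region, for 725 promoter peaks of 1 strand without the element and for windows of the same length at 19252 coding start sites. CGATA was found in 76.6% of members (72.6 to 80.2%), 70.6% of the peaks without the element and 35.3% of start-site windows. Copies of ATCGAT, the core of the element, outside a full element were in 33.8, 45.0 and 11.7%. Motif 1 was in 7.02, 6.34 and 4.46%, the core promoter element GGTATTTT in 5.32, 3.45 and 3.66%, and CAGCNCTN in 16.6, 19.7 and 12.3%. The E-box CAGCTG was in 14.9, 19.2 and 13.6%, and CAGGTAG, read by the early activator Zelda, in 0.638, 0.690 and 1.12%. TATAAA, the core of the TATA box, was in 28.7, 25 and 27.3%. An Initiator form, TCAGTT, was in 14% of members and 13.7% of the peaks without the element, against 22.2% of start-site windows. The peak windows were centred on summits, which in the 470 members lay a median of 50 bp from the start, with an upper quartile of 91.8 bp. Start-site windows were centred on the start itself, so they do not cover the same positions. GAGAGAG, read by GAGA factor, was in 8 of 470 members (1.70%, 0.865 to 3.32%), in 63 of 725 peaks without the element (8.69%, 6.85 to 11.0%) and in 4.90% of windows. At divergent peaks with the element GAGAGAG was in 3 of 357 (0.840%, 0.286 to 2.44%). The intervals of members and of promoter peaks of 1 strand without the element do not overlap for GAGAGAG or for ATCGAT (29.7 to 38.2% against 41.4 to 48.6%). For ATCGAT and CGATA, members count only copies beyond the element itself, which holds both, while peaks without the element count any copy. The shares of ATCGAT and CGATA in these groups are therefore not like for like. The T-box motif GGTGTGA was in 8 members (1.70%, 0.865 to 3.32%), 2.90% of the peaks without the element and 2.04% of windows. A match says only that these letters are present.

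Of 13945 protein-coding genes, 488 (3.50%) had a start within 500 bp of a member's summit. Among genes of DNA replication it was 6 of 39 (15.4%, 7.25 to 29.7%), namely PolA1, PCNA, Top2, Gnf1, Psf3 and Prim2. PCNA, the sliding clamp of DNA polymerases, had signals of 50.7, 74.2 and 64.3 in replicates 1, 2 and 3, with its element 23.5 bp before the start and 9.5 bp from the summit. PolA1 had 118, 237 and 176. Both promoters at which the element was first described were thus among the members and in all 3 lists, PolA1 at rank 162 and PCNA at rank 1079 of the conservative set. Top2, the type II topoisomerase, had 40.2, 88.0 and 54.1, and Prim2, the large subunit of primase, had 41.9, 51.2 and 31.2. Prim2 was in 1 replicate list only.

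The cell cycle list had 4 of 29 genes with a member peak, BubR1, Cdk2, CycA and Bub1. BubR1, a kinase of the spindle checkpoint, had values of 99.0, 145 and 107, and the cyclin-dependent kinase Cdk2 had 52.6, 168 and 104. CycA, which encodes an A-type cyclin, had 55.5, 92.9 and 90.1. The peak at Bub1 was not the strongest of its region, and its own signal was 14.3. Among promoter and insulator factors, 3 of 19 genes had a member, pita, CTCF and mod(mdg4), all of which encode proteins of chromatin insulators. CTCF had 55.6, 137 and 119 in replicates 1, 2 and 3. Among remodelling factors it was 3 of 19, Iswi, Top2 and Nurf-38. Iswi, the ATPase of several remodelling complexes, had 84.3, 190 and 129.

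The list of cytosolic ribosomal protein genes had 10 members of 86 (11.6%, 6.44 to 20.1%). RpL37-1, which also had a member peak, is not on that list. RpS7, with 116, 246 and 281, RpL26, with 104, 248 and 260, RpS24, with 113, 237 and 221, and RpS30, with 114, 212 and 180, were the strongest. All 4 were in the 3 replicate lists, whereas RpL27 was in 1. Mitochondrial ribosomal protein genes had 6 of 73 (8.22%, 3.82 to 16.8%), led by mRpL4 with 137, 336 and 268. Autophagy genes had 4 of 23, Vps15, Atg14, ref(2)P and Atg13. Vps15, a regulatory subunit of the class III phosphatidylinositol kinase, had 121, 207 and 185. The TOR and insulin list had 2 of 21 (9.52%, 2.65 to 28.9%), Pi3K92E and Lst8, an interval that includes the 3.50% of all genes.

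General transcription factors and Mediator subunits had 3 of 53 (5.66%, 1.94 to 15.4%), Tbp, Taf3 and MED26, an interval that includes the 3.50% of all genes. The list of respiratory chain and ATP synthase genes had 5 of 86 (5.81%, 2.51 to 12.9%), with UQCR-14 strongest at 93.2, 136 and 158. NdufA3, which also had a member peak, is not on that list. Proteasome genes had 1 of 48 (2.08%, 0.369 to 10.9%), Rpn12. Mitochondrial DNA maintenance had 1 of 10 (10%, 1.79 to 40.4%), mtDNA-helicase, and neuronal differentiation 1 of 20 (5%, 0.888 to 23.6%), Nrg. All of these intervals include 3.50% too.

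No gene had a member peak in the lists of T-box genes (0 of 8), heart and dorsal mesoderm regulators (0 of 23), Hox genes (0 of 8) or somatic muscle genes (0 of 21). Only peaks with the exact element at promoters of 1 strand count as members. A count of 0 in any list therefore does not say that its genes lacked a conservative peak. The heart and dorsal mesoderm are tissues in which Dorsocross genes are known to act. A count of 0 of 23 has a Wilson interval of up to 14.3%, which includes the share of all genes. The larger lists of cuticle proteins and of odorant and gustatory receptors also had none, 0 of 118 and 0 of 119, with upper limits of 3.15 and 3.13%. These limits lie below 3.50%. The lists of Hippo pathway genes (0 of 15), chaperones (0 of 20) and aminoacyl-tRNA synthetases (0 of 20) had none either. DnaJ-1 and CaBP1, named above among the strongest, are not on the chaperone list, and neither are the members Hsp110, Pdi and Pfdn1. The count of 0 therefore covers only the 20 genes listed. Other lists are not complete either: RpL37-1, NdufA3 and Epg5 are members that the ribosomal, respiratory chain and autophagy lists do not hold.

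Promoters with the element were called unidirectional from coding starts alone. Of the 537 members, 120 (22.3%, 19.0 to 26.1%) had a coding start of the other strand between 500 and 1000 bp from the summit, and 27 (5.03%) had a noncoding one within 500 bp. Just inside this limit of the rule, 16 members with an opposite start 500 to 550 bp away had a median percentile of 48.0 in the conservative list. The 26 divergent peaks just outside it, at 450 to 500 bp, had 42.9.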

How the data were processed

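Anti-GFP ChIP-seq of whole Doc3-eGFP embryos was measured in 3 biological replicates of 1 group. The analysis used deposited peak lists, on dm6 per the labels: a ranked and a thresholded list for each replicate and 4 thresholded lists for the series, 1 of them marked conservative by the authors. The signal in these deposited lists is the peak caller's strength on an unstated scale, and the deposited score is a scaled irreproducible discovery rate (IDR), used by the authors to set the threshold. Per the file headers the lists derive from alignments on dm6 with a control; the sources used here name neither aligner nor caller, nor the replicates behind each series list. Depth is therefore unknown, and intervals cover counting error only.

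The tools were scipy 1.17.1, pandas 2.3.3 and numpy 2.4.6 under Python 3.11.15. Start sites came from Ensembl 115 (annotation 6.54), and sequences from the NCBI RefSeq copy of release 6, whose chromosome lengths hold all peaks; sequences of arm 2R are not printed. Peaks overlapped when they shared 1 bp. For each replicate, a conservative peak took the highest signal among overlapping ranked regions, turned into a percentile over 2793 peaks. For the version with 1 peak per region, percentiles in the tests were taken again within those peaks. Replicate differences were tested by a two-sided exact sign-flip permutation test, which was checked on simulated data. The peaks, motifs and gene lists were chosen with earlier results of these data known. Genes named are those of the 20 strongest members, of members with 3 copies and the listed members of the gene lists. Alternatives changed the windows, lists, overlap rules and replicates.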

Additional observations from a re-analysis of the deposited data

How the results depend on the processing

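Of the alternatives tried, most left the results within their counting intervals or within 1.5 times the count. Taking the strongest peak per merged region raised the share of summits within 50 bp of the element to 69.1%. Restricting the set to the stronger 50% by signal left 331 members, raised the share in all 3 replicate lists to 89.7% and that within 50 bp to 71.0%, lowered the rank difference from promoter peaks of 1 strand without the element from 18.3 to 6.18 points in the same direction, and reversed the small difference from divergent peaks with the element to 0.525 points (exact sign-flip permutation p = 0.75). Requiring an overlap of 50% of both peaks lowered the share in all 3 lists to 40.0%, and requiring a replicate summit within 100 bp lowered it to 55.1%. The share of copies under a peak was 60.6% in the longest series list and 63.6% for copies within 250 bp of a start. Counting copies under the thresholded peaks of both remaining replicates, with each replicate left out in turn, gave 36.3 to 41.8%, since that asks for 2 lists at once. The cause of the other shifts was not tested. No paired analysis was possible because all samples belong to 1 group. The depth behind the lists is unknown, so weak members cannot be told from regions that a deeper library would call in every replicate.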
